A study of Mus musculus with 12 samples.

Results

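Histones package DNA, and most histone messengers lack a poly(A) tail, so a library made from polyadenylated RNA holds only some of them. The 8 histone genes described here are Hist3h2a, Hist1h2bc, Hist1h1c, H2afz, H2afv, H2afy, H3f3a and H3f3b, out of 13951 genes in the deposited expression table. They were listed by name, and all 8 were found in the table and passed the filter on low values. Hist3h2a and Hist1h2bc were put on the list because their values were lower in Angelman syndrome (AS) columns. Their AS minus wild-type (WT) differences therefore describe the reason for the choice and carry no p-value. The other 6 were tested. The RNA came from right ventral hippocampus, taken from C57BL/6J mice aged 12 to 16 weeks. The groups were 3 AS females, 3 AS males, 3 WT females and 3 WT males, with 1 library per mouse. The labels do not state the mutation of the AS mice. Angelman syndrome is caused by loss of the maternally inherited Ube3a, which encodes a ubiquitin ligase.

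Replication-dependent histone genes lie in clusters and are transcribed mainly during DNA synthesis. Their messengers end at a conserved RNA stem-loop that is bound by the stem-loop binding protein Slbp, and they normally carry no poly(A) tail. Some of these genes also give polyadenylated transcripts in cells that no longer divide, by use of a poly(A) signal downstream of the stem-loop. Replacement variants such as histone H3.3, H2A.Z and macroH2A come from genes with introns and poly(A) signals, and neurons, which do not divide, depend on them for new histone protein.

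The annotated transcripts show where the members stand between these classes. The histone stem-loop was searched on the transcript strand as GG, 2 free bases, CTTTT, 1 free base, AG, 2 free bases and CC. These letters were present in 98 of 58797 protein-coding transcripts of the mouse annotation (0.167%), which belong to 72 genes, of which 45 are histone genes by symbol. Of the 13 clustered histone genes in the table, 10 held these letters in their longest coding transcript, 24 to 58 bases after the stop codon. In Hist1h4k the search could not find the letters, since its annotated transcript ends at the stop codon. Of 11 replacement and linker variant genes, only H2afx held them. The stem-loops below are shown, with their coordinates on GRCm38 and 5 flanking bases on each side, because they mark the point at which the usual messenger ends. Capitals mark the 16 bases of the motif, written as DNA.
Hist3h2a chr11:58955172-58955187 (+): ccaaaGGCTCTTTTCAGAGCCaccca
Hist1h1c chr13:23739512-23739527 (+): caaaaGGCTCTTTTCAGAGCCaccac
Hist3h2ba chr11:58949349-58949364 (+): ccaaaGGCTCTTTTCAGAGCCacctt
Hist2h3c2 chr3:96238485-96238500 (-): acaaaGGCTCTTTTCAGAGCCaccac
Hist1h4i chr13:22040966-22040981 (-): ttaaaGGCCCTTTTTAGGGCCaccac
H2afx chr9:44335240-44335255 (+): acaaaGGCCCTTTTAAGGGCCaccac

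In the annotation, Hist3h2a and Hist1h1c ran on well past this point. The Hist3h2a transcript had 1 exon of 2146 bases, with 1643 bases after the stem-loop and an AATAAA poly(A) signal in its last 50 bases. The Hist1h1c transcript had 1 exon of 1560 bases, 840 of them after the stem-loop, and also ended with AATAAA. The Hist1h2bc transcript of 1156 bases was spliced from 2 exons. It held neither the stem-loop letters nor a poly(A) signal (AATAAA or ATTAAA) in its last 50 bases. The variant members H2afz, H2afv, H2afy, H3f3a and H3f3b had 4 to 9 exons in their longest coding transcripts, and none held the letters. Of the 8 members, 5 had a poly(A) signal in the last 50 bases of that transcript. Hist1h2bc, H2afy and H3f3b did not, though a shorter H3f3b transcript ended with AATAAA. All of these are annotation, not measured 3′ ends, since the deposited table gives a single value per gene.

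**Figure D1:**
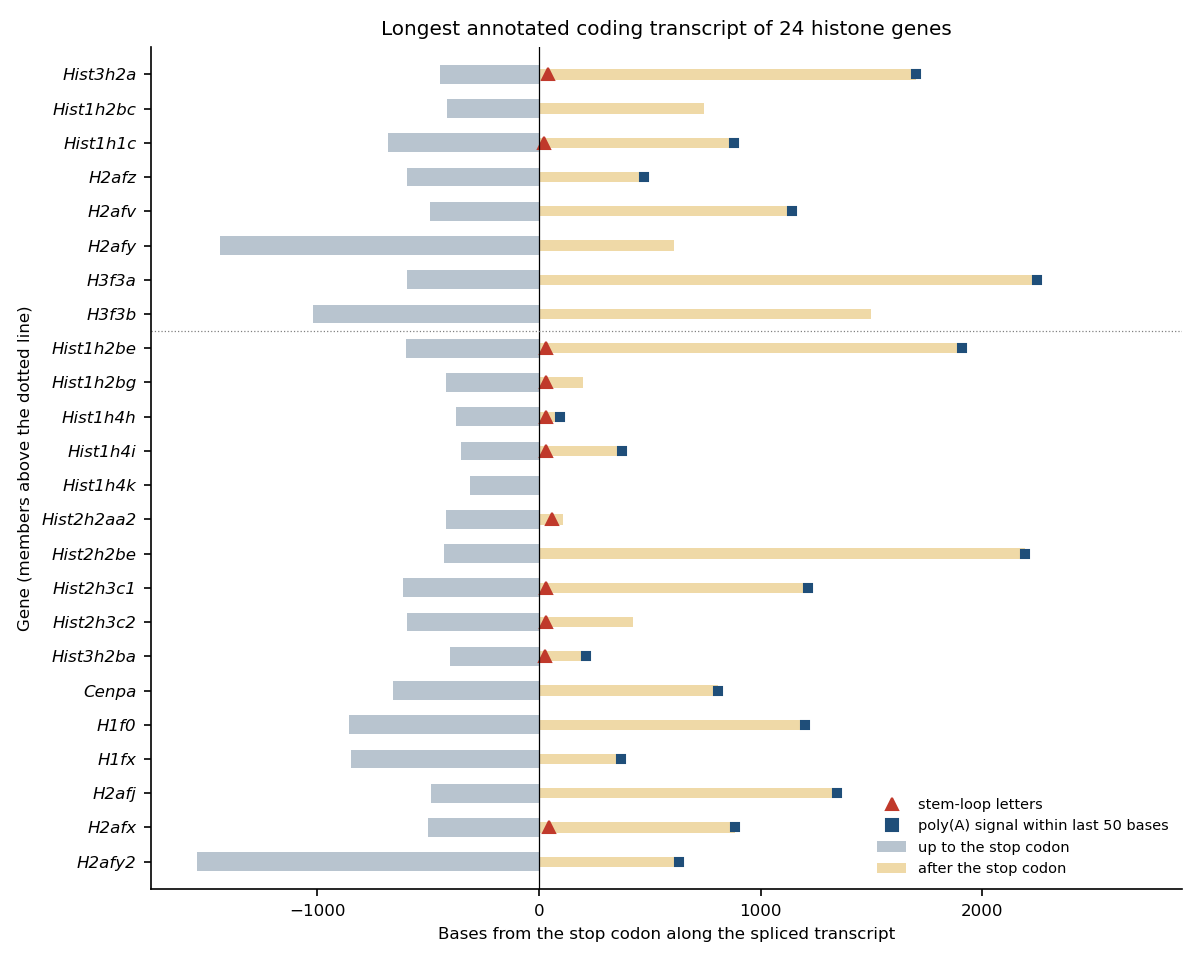
The longest annotated coding transcript of each of the 24 histone genes in the table is drawn along bases from the stop codon, grey up to the stop codon and yellow after it. Red triangles mark the stem-loop letters and blue squares a poly(A) signal in the last 50 bases; Hist3h2a, Hist1h1c, Hist1h2be and Hist2h3c1 run furthest past a stem-loop.

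Promoter sequences from RefSeq on GRCm38.p6 were matched for 7 of the 8 members, all but Hist1h2bc. The 250 bases before the start of Hist3h2a and of Hist3h2ba, its neighbour on the same strand, are printed because both genes had lower values in AS libraries. H3f3b is printed beside them because its promoter held the same kinds of motif as that of Hist3h2a, at other positions. The part of these motifs in the values was not tested. Capitals mark CCAAT or its complement ATTGG, the letters TATANA on the gene strand, and the octamer ATGCAAAT or its complement.
Hist3h2a chr11:58954435-58954684 (+): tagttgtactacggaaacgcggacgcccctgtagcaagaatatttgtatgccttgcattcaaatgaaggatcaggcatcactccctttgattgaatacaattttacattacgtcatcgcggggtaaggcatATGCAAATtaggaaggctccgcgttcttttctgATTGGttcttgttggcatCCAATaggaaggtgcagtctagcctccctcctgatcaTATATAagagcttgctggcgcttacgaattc
Hist3h2ba chr11:58948661-58948910 (+): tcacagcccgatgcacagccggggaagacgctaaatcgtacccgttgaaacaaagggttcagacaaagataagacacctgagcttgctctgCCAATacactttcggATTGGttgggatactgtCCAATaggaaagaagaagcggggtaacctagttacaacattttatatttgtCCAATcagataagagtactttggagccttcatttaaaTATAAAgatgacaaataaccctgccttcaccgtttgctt
H3f3b chr11:116024505-116024754 (-): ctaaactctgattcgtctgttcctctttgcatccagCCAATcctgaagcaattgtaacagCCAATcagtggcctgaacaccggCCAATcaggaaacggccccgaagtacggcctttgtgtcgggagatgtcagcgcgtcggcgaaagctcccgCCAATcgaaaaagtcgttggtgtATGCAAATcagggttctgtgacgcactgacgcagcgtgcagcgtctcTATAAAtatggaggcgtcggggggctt

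Hist3h2a had 2 CCAAT boxes, a TATA motif 31 bases before the start and the octamer 119 bases before it. Hist3h2ba had 4 CCAAT boxes and a TATA motif 39 bases before the start, and the octamer letters were not in its window. H3f3b had 4 CCAAT boxes, a TATA motif 27 bases before the start and the octamer at 74 bases. Over all 32851 promoter windows of 300 bases, 37.4% held CCAAT on either strand, 18.0% held TATANA on the gene strand and 1.74% held the octamer on either strand. These matches describe letters only.

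Libraries differed in ways that touch the values below. Ube3a ranged from 3.78 to 4.31 in the 6 AS libraries and from 3.99 to 4.34 in the 6 WT libraries, in log2(abundance + 1), and this says nothing of the genotype without the mutation being known. WT female replicate 1 had an Xist value of 0.35, against 6.00 to 6.44 in the other 5 female libraries, while its 4 Y-linked genes averaged 0.68 and stayed in the female range. Choroid plexus genes were highest in AS female replicate 2, AS male replicate 2, WT female replicate 1 and WT female replicate 2, with list means of 3.63 to 5.87, against 1.46 to 2.09 in the other 8 libraries. For some of the genes below, results are therefore also given without WT female replicate 1 or without these 4, called the choroid-high libraries. Leaving out these 4 leaves 2 AS females, 2 AS males, 1 WT female (replicate 3) and 3 WT males, so its female and pooled values rest on a single WT female, and its errors assume that this mouse varies like the other groups. The defining markers of the tissue were present, with Snap25 of neurons at 10.1 and Slc17a7 of glutamatergic neurons at 8.64 on average. Library depth is unknown, since the table has no read counts, and groups of 3 mice limit the precision of every value.

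On this scale, read as an abundance per transcript length, the 8 members spanned a wide range. H3f3a stood highest at 7.83 ± 0.09 (SD over 12 libraries), followed by H2afz at 7.29 ± 0.07 and H3f3b at 6.68 ± 0.13. H2afy averaged 5.80 ± 0.07 and Hist1h2bc 5.78 ± 0.18. This last pair did not differ beyond its spread, since H2afy was above Hist1h2bc in 5 of 12 libraries. H2afv averaged 4.57 ± 0.12, Hist3h2a 4.33 ± 0.33 and Hist1h1c 3.60 ± 0.40. H2afv was above Hist3h2a in 9 of 12 libraries, so their order was not the same in every library. Every other neighbouring pair kept its order in 12 of 12 libraries.

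**Figure D2:**
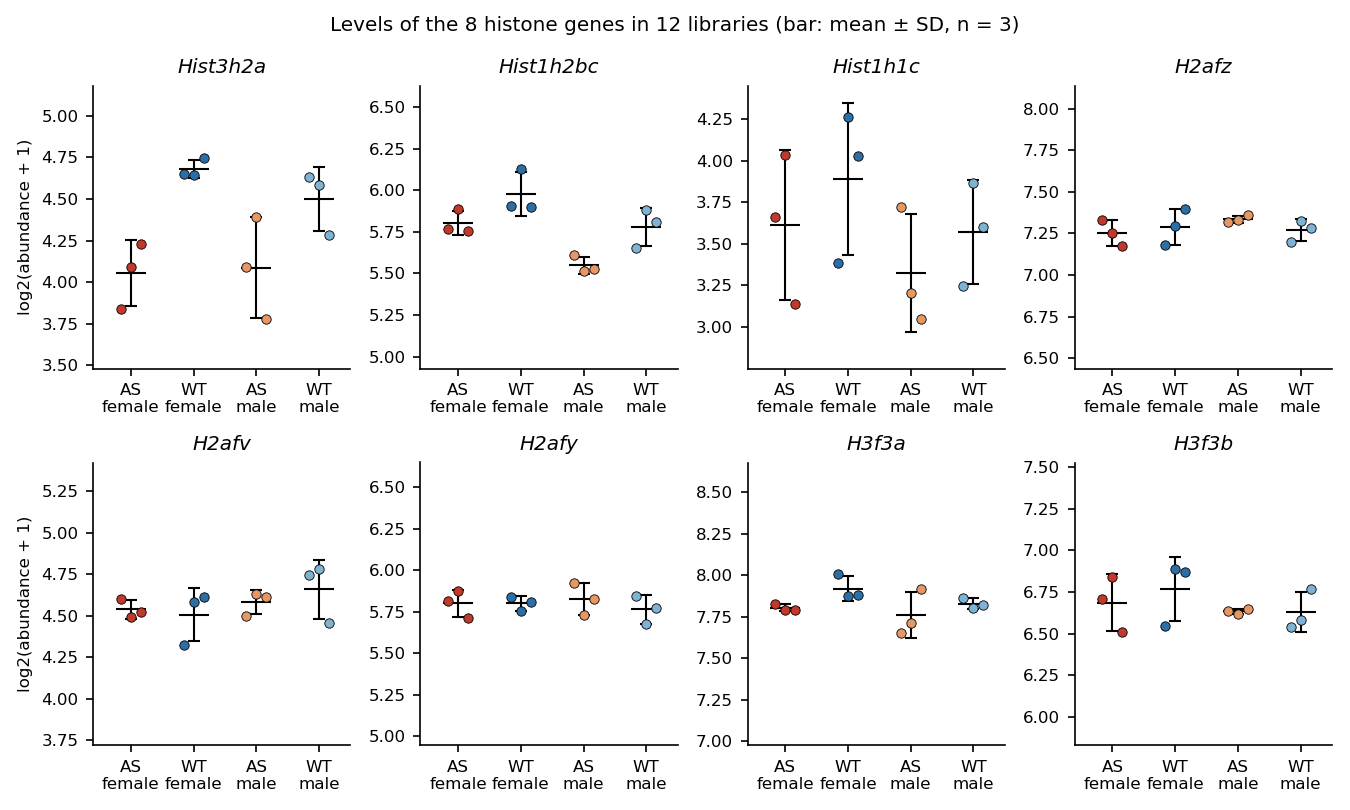
Each panel shows 1 member gene, with log2(abundance + 1) in every library as a point and the mean ± SD of each group of 3 as a bar; all panels span the same height. Hist3h2a and Hist1h2bc sit lower in AS than in WT groups, Hist1h1c scatters widely, and the 5 variant genes sit close together.

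Hist3h2a encodes a histone H2A and lies at chr11:58954685-58956830 on the plus strand (ENSMUSG00000078851, current symbol H2aw). Its values were 3.84, 4.09 and 4.23 in AS females, against 4.65, 4.65 and 4.74 in WT females. In AS males they were 4.09, 4.39 and 3.78, against 4.63, 4.59 and 4.28 in WT males. The female groups did not overlap, and the male groups did: AS male replicate 2 was above WT male replicate 3. The difference was -0.63 ± 0.15 in females and -0.41 ± 0.15 in males (SE), which are ratios of 0.647 and 0.751 on the abundance + 1 scale. Over both sexes it was -0.52 ± 0.11, and all 6 AS libraries lay below the WT mean. The difference between the sexes was 0.21 ± 0.21. The male value was -0.26 without AS male replicate 3. Leaving out 1 library at a time kept the value over both sexes between -0.60 and -0.44, and without the 4 choroid-high libraries it was -0.64. In tissue RNA, fewer cells of a type that expresses a gene and less RNA per cell cannot be told apart.

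Hist3h2a shares reads with a neighbour. It starts at the same base as Trim17, a ubiquitin ligase gene, and 610 of its 2047 stretches of 100 bases (29.8%) also occur in Trim17 transcripts. Trim17 itself was at 2.28, 2.35 and 2.45 in AS females, against 1.99, 2.34 and 2.52 in WT females. In AS males it was at 2.45, 2.08 and 2.02, against 2.30, 2.46 and 2.39 in WT males. The groups overlapped in both sexes, and the difference over both sexes was -0.06 ± 0.11 (limma, adjusted p = 0.978). RSEM, named in the submitters' processing notes, divides shared reads between transcripts by estimation, so the values of this pair are not independent.

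The nearest histone gene, Hist3h2ba, which encodes a histone H2B, ends 5151 bases before Hist3h2a begins and was not a member. Its values were 3.88, 3.90 and 4.18 in AS females, against 4.26, 4.32 and 4.38 in WT females. In AS males they were 4.19, 3.64 and 4.35, against 4.55, 4.51 and 4.61 in WT males. Neither pair of groups overlapped, which held in the lower direction in both sexes for 38 of 13858 genes (0.274%). The difference over both sexes was -0.41 ± 0.11 and did not pass (limma, unadjusted p = 0.00224, Benjamini-Hochberg adjusted p = 0.661). It was -0.32 without the 4 choroid-high libraries and -0.43 without WT female replicate 1. The other flanking genes differed little: Rnf187, a ubiquitin ligase gene, differed by 0.01 ± 0.08 and Trim11 by 0.02 ± 0.07. Within libraries, Hist3h2a minus Hist3h2ba averaged 0.07 ± 0.11 in AS females, against 0.36 ± 0.03 in WT females (SD, n = 3 each). In males this log2 difference was 0.03 ± 0.67 for AS and -0.05 ± 0.23 for WT. Hist3h2a was picked for low AS values in these libraries, so its smaller distance to Hist3h2ba in AS females partly follows from that choice.

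**Figure D3:**
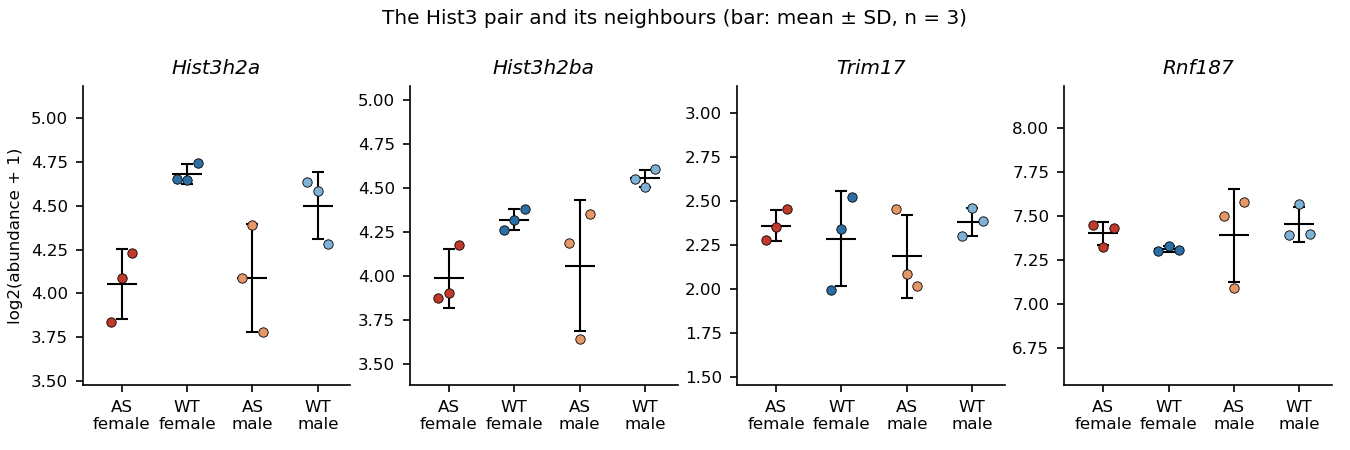
Panels show log2(abundance + 1) of Hist3h2a, its histone neighbour Hist3h2ba and the flanking genes Trim17 and Rnf187 in every library, with the mean ± SD of each group of 3. The histone pair is lower in AS groups, and the flanking genes overlap between genotypes.

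Hist1h2bc encodes a histone H2B and lies at chr13:23684199-23692908 on the plus strand (ENSMUSG00000018102, current symbol H2bc4). Its values were 5.77, 5.89 and 5.76 in AS females, against 5.91, 6.13 and 5.90 in WT females. In AS males they were 5.61, 5.52 and 5.52, against 5.65, 5.88 and 5.81 in WT males. The groups did not overlap in either sex, so Hist1h2bc is among the 38 genes counted above, a count that its selection for low AS values makes uninformative. The difference was -0.17 ± 0.08 in females, -0.23 ± 0.08 in males and -0.20 ± 0.06 over both sexes (SE). The female value was -0.10 without WT female replicate 2. The value over both sexes was -0.18 without the 4 choroid-high libraries. Of its stretches of 100 bases, 25.4% also occur in other genes, chiefly other H2B genes, so its value may hold reads of relatives. Hfe, the nearest gene tested, encodes a regulator of iron uptake and differed by -0.07 ± 0.12.

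Hist1h2bc values were also lower in male than in female libraries, by about as much as between genotypes. Male minus female over both genotypes was -0.23 ± 0.06, and all 6 male libraries lay below the female mean. This did not pass the correction (limma, unadjusted p = 0.00184, adjusted p = 0.615). The value was -0.16 without the 4 choroid-high libraries, 3 of which are female, and -0.24 without WT female replicate 1. In this comparison 5 of 13858 genes passed (0.0361%), no member among them. The other members differed between males and females by -0.30 to 0.10, Hist1h1c being lowest at -0.30 ± 0.20 (adjusted p = 0.802).

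Hist1h1c encodes the linker histone H1.2, which binds DNA between nucleosomes, and lies at chr13:23738808-23740367 on the plus strand (ENSMUSG00000036181, current symbol H1f2). Its values were 3.66, 4.04 and 3.14 in AS females, against 3.38, 4.26 and 4.03 in WT females. In AS males they were 3.72, 3.20 and 3.05, against 3.25, 3.87 and 3.60 in WT males. All groups overlapped. The difference over both sexes was -0.26 ± 0.20 (adjusted p = 0.940), with a 95% interval from -0.69 to 0.16. Leaving out 1 library moved it between -0.39 (without WT female replicate 1) and -0.15 (without AS female replicate 3), and without the 4 choroid-high libraries it was -0.41 (adjusted p = 0.726). Its SD within groups was 0.40, above that of 97.4% of the 3129 genes within 0.5 log2 units of its level, whose median was 0.14. The corresponding SD was 0.21 for Hist3h2a, above 89.6% of genes at its level, and 0.10 for Hist1h2bc, above 43.1%.

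The replacement H2A genes differed little between genotypes. H2afz and H2afv encode the pair of H2A.Z proteins, which mark promoters of active genes, and H2afy encodes macroH2A1, which is enriched on silent chromatin. H2afz was at 7.33, 7.25 and 7.17 in AS females, against 7.18, 7.29 and 7.40 in WT females. AS males had 7.32, 7.33 and 7.36, against 7.20, 7.33 and 7.29 in WT males. Both pairs of groups overlapped, and the difference over both sexes was 0.01 ± 0.05, with a 95% interval from -0.09 to 0.12. For H2afv it was -0.02 ± 0.07, with an interval from -0.18 to 0.13, and for H2afy 0.03 ± 0.05, with an interval from -0.08 to 0.14. Without the 4 choroid-high libraries these differences were -0.04 for H2afz, -0.08 for H2afv and 0.03 for H2afy. The H2afz difference also fell below 0 without WT female replicate 1. Of the 100-base stretches of H2afz, 24.8% occur in the predicted genes Gm8203 and Gm13007, while those of H2afv and H2afy occur in no other gene. H2afz was above H2afv in every library, by 2.71 ± 0.05 in AS females, 2.75 ± 0.06 in AS males, 2.78 ± 0.07 in WT females and 2.61 ± 0.19 in WT males (SD of the log2 difference, n = 3 each).

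H3f3a and H3f3b encode the same histone H3.3 protein, which is deposited outside DNA replication. H3f3a was at 7.83, 7.79 and 7.79 in AS females, against 8.01, 7.87 and 7.88 in WT females. AS males had 7.65, 7.71 and 7.91, against 7.86, 7.80 and 7.82 in WT males. The female groups did not overlap and the male groups did. The difference over both sexes was -0.09 ± 0.05 and did not pass (unadjusted p = 0.0869, adjusted p = 0.914). It was -0.06 without the 4 choroid-high libraries. H3f3b was at 6.71, 6.84 and 6.51 in AS females, against 6.55, 6.89 and 6.87 in WT females. In AS males it was at 6.64, 6.62 and 6.65, against 6.54, 6.58 and 6.77 in WT males. These groups overlapped, and the difference was -0.04 ± 0.07, with an interval from -0.20 to 0.12. Without the 4 choroid-high libraries the female difference of H3f3b was -0.26, against -0.08 with them, but the value without them sets 2 AS females against the 1 WT female left. H3f3a gave 2.17 times the abundance of H3f3b in AS females, 2.18 times in AS males, 2.22 times in WT females and 2.30 times in WT males, all on the abundance + 1 scale.

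No gene passed in any comparison of genotypes. In AS minus WT, 0 of 13858 genes passed in females, in males or over both sexes (limma, Benjamini-Hochberg adjusted p under 0.05). At an unadjusted p under 0.05 there were 438 in females (3.16%), 890 in males (6.42%) and 741 over both sexes (5.35%), and 0 of the 6 tested members were among them. AS libraries lay below WT libraries without overlap for 1 of these 6 members in females, H3f3a, beside 4.02% of all genes, and for 0 in males, beside 5.18%. The interaction of genotype and sex called 0 genes as well, with 522 at an unadjusted p under 0.05 (3.77%).

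The other histone genes in the table show how far the pattern of the picked pair extended. Including members, 12 of 13 clustered genes were tested and 10 had a difference below 0 in females, 11 in males and 10 over both sexes, with medians of -0.21, -0.30 and -0.23. Over all genes, 48.4%, 47.6% and 47.3% were below 0 in these comparisons, with medians of 0.00, 0.01 and 0.01. Since the picked pair was chosen for this direction, the 9 tested clustered genes that are no members were counted apart. Of these, 7 were below 0 in females, 8 in males and 7 over both sexes, with medians of -0.16, -0.35 and -0.22. None of them passed. Single libraries weighed on these figures: the female median of the 9 was -0.07 without WT female replicate 2, and the male median -0.12 without WT male replicate 2. For all 12 clustered genes the corresponding medians were -0.10 and -0.14. Without AS female replicate 1, or without WT female replicate 1, 5 of the 9 were below 0 in females. Of the 11 tested replacement and linker variants, 7 were below 0 in each comparison, with medians of -0.04, -0.06 and -0.02.

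**Figure D4:**
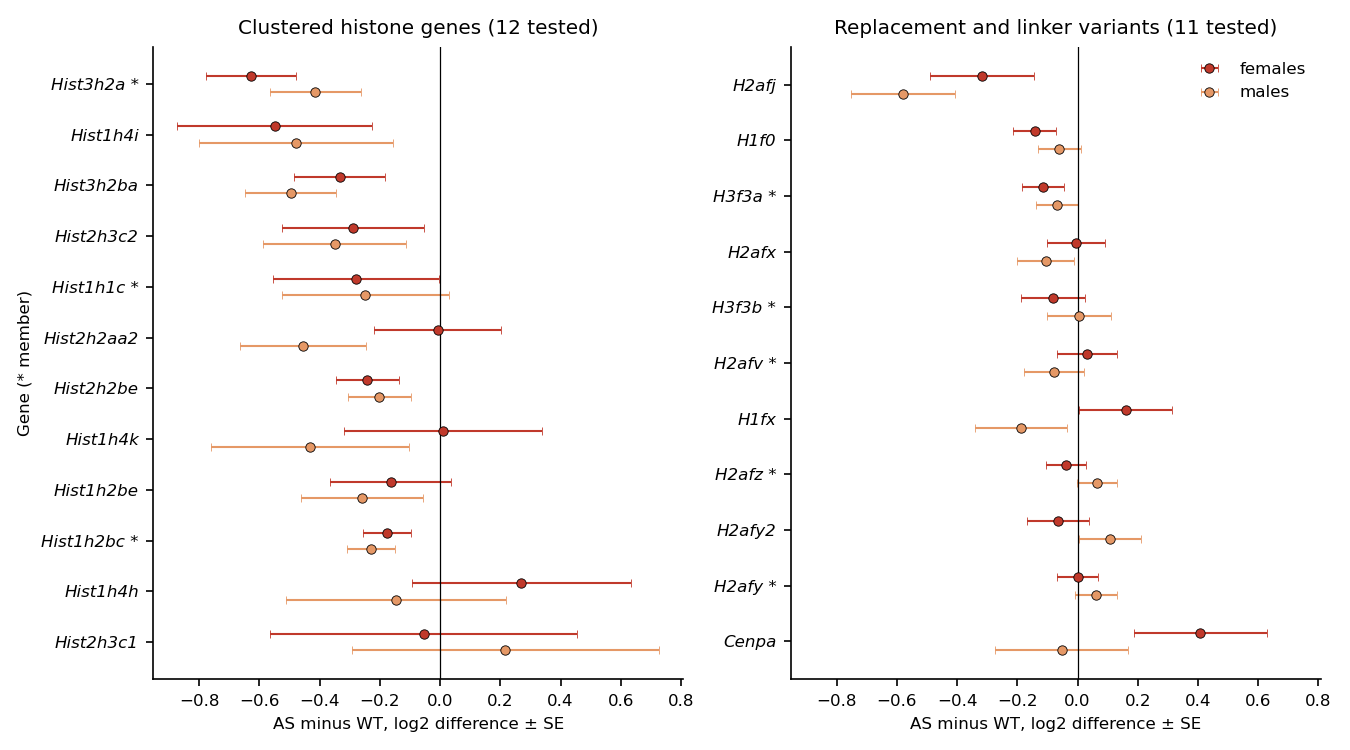
AS minus WT log2 differences with their SE are drawn for the 23 tested histone genes, females in dark red and males in orange, clustered genes on the left and variants on the right; asterisks mark members. Most clustered genes lie left of 0 in both sexes, while the variants other than H2afj lie near 0 or have wide errors.

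Among clustered genes that are no members, the smallest p after Hist3h2ba belonged to Hist2h2be, an H2B gene whose transcript has an AATAAA signal and no stem-loop letters. Hist2h2be was at 2.33, 2.31 and 2.25 in AS females, against 2.51, 2.58 and 2.52 in WT females. AS males had 2.34, 2.45 and 2.18, against 2.40, 2.68 and 2.49 in WT males. The female groups did not overlap, and the difference over both sexes was -0.22 ± 0.07 (unadjusted p = 0.0113, adjusted p = 0.890). Hist1h4i, an H4 gene, differed by -0.51 ± 0.23 (adjusted p = 0.914), and by -0.30 without AS male replicate 2, its lowest library at 0.45. Hist2h3c2, an H3 gene, differed by -0.32 ± 0.17 (adjusted p = 0.914). Every 100-base stretch of Hist2h2aa2 and Hist2h3c1 also occurs in other genes, so their values cannot be assigned to them alone. The share was 61.6% for Hist2h3c2, 64.3% for Hist1h4k, 38.5% for Hist1h4h and 15.1% for Hist1h4i. It was 9.93% for Hist1h2be, 4.85% for Hist3h2ba and 0% for Hist2h2be. The clustered genes counted above may therefore share reads and are not independent of each other.

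H2afj was the variant furthest from 0. It encodes an H2A variant, and its longest transcript has 1 exon with an AATAAA signal. Other histone genes have such a transcript too, among them Hist3h2a and the linker variants H1f0 and H1fx. H1f0 averaged 5.61 in AS and 5.71 in WT libraries, and H1fx 3.55 and 3.56. H2afj values were 3.10, 3.07 and 3.51 in AS females, against 3.54, 3.35 and 3.73 in WT females. In AS males they were 3.55, 2.94 and 3.04, against 3.78, 3.89 and 3.59 in WT males. The groups overlapped in females and not in males. The difference over both sexes was -0.45 ± 0.12, all 6 AS libraries lay below the WT mean, and it did not pass (unadjusted p = 0.00331, adjusted p = 0.661). Without the 4 choroid-high libraries it was also -0.45.

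Summed over the 13 clustered genes, abundance was 115, 140 and 125 in AS females, against 144, 167 and 149 in WT females. In AS males the sums were 118, 113 and 106, against 132, 157 and 138 in WT males. The groups did not overlap within a sex, but Hist3h2a and Hist1h2bc, chosen for their direction, make up much of these sums. Over the 10 clustered genes that are no members the sums were 36.3, 50.3 and 46.0 in AS females, against 51.5, 55.4 and 49.3 in WT females. In AS males they were 42.0, 40.3 and 41.1, against 50.3, 62.8 and 53.0 in WT males. The female groups overlapped here and the male groups did not. The 11 variants summed to 618 to 672 in AS libraries, against 651 to 701 in WT libraries.

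RNAs that normally have no poly(A) tail can be carried through poly(A) selection, and 8 of 18 listed small RNAs and other tail-less transcripts were in the table. Their summed abundance was 21.2, 22.9 and 21.7 in AS females, against 17.8, 40.6 and 61.0 in WT females. In AS males it was 13.7, 8.63 and 14.5, against 39.6, 17.2 and 74.3 in WT males. The female groups overlapped and the male groups did not, as for the clustered sums without members. Tail-less RNAs and clustered genes without members shared their order of libraries in AS females, with replicate 1 lowest and replicate 2 highest. In AS males replicate 2 was lowest in both, and the highest library differed. The order was not shared in WT females, where replicate 3 had the highest tail-less sum and the lowest clustered sum without members. Nor was it shared in WT males, since replicate 2 had the lowest sum of tail-less RNAs and the highest clustered sum. Over both sexes 5 of the 8 were below 0 with a median of -0.45, none passed, and Snora21 had the smallest p (-1.72 ± 0.63, unadjusted p = 0.0192, adjusted p = 0.893). Their part in the histone values was not tested. Of the cell type lists, all 5 interneuron markers were below 0 over both sexes with a median of -0.10, and all 5 oligodendrocyte markers above 0 with a median of 0.12. Summed interneuron markers ranged from 539 to 661 in AS libraries, against 547 to 796 in WT libraries, and oligodendrocyte markers from 1384 to 2296 in AS libraries, against 1217 to 2259 in WT libraries. All 10 choroid plexus markers were below 0 in females, with a median of -0.97, above 0 in males, with a median of 0.51, and below 0 over both sexes, with a median of -0.23. The part of any cell type in the histone values was not tested.

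**Figure D5:**
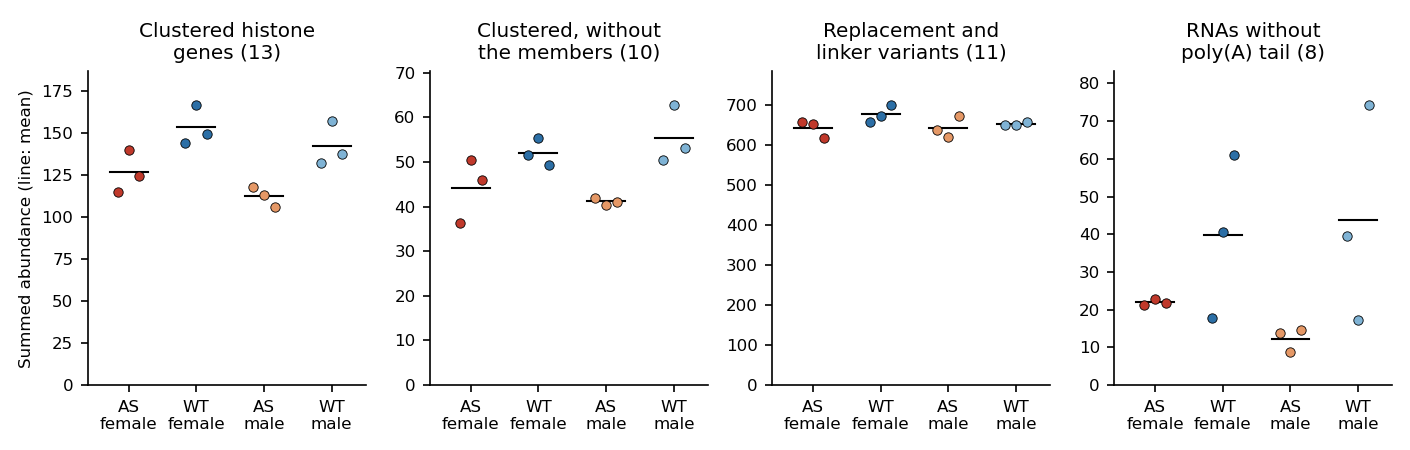
Summed abundance is shown for every library as a point, with the group mean as a line, for the clustered histone genes with and without the members, the variants, and RNAs without a poly(A) tail; axes start at 0. Without the members, the clustered sums are 40.3 to 42.0 in AS males, against 50.3 to 62.8 in WT males, and overlap in females (36.3 to 50.3 in AS, 49.3 to 55.4 in WT); the tail-less RNAs are likewise apart in males, 8.63 to 14.5 in AS and 17.2 to 74.3 in WT, and overlap in females, 21.2 to 22.9 in AS and 17.8 to 61.0 in WT.

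A further list held genes whose products form, bind or degrade the histone messenger 3′ end. Of 22 listed, 21 were tested and 15 were above 0 over both sexes, with a median of 0.02 beside 0.01 for all genes. The smallest p of the list belonged to Slbp, the stem-loop binding protein gene. Slbp was at 4.43, 4.25 and 4.23 in AS females, against 4.21, 4.03 and 4.15 in WT females. In AS males it was at 4.46, 4.53 and 4.44, against 4.34, 4.15 and 4.24 in WT males. AS libraries were above WT libraries without overlap in each sex. With each sex taken alone, this held for 4.99% of all genes in females and 6.02% in males. The share of genes for which it held in both sexes was not counted, so how rare this was among all genes cannot be said. The difference over both sexes was 0.20 ± 0.06 and did not pass (unadjusted p = 0.00351, adjusted p = 0.661).

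Histone chaperones carry histones to DNA and exchange variants. Of 34 listed, 31 were tested, with 22 above 0 over both sexes and a median of 0.05. None passed. Over all genes, 47.3% were below 0 over both sexes, with a median of 0.01. Ep400 and Srcap, which are ATPases of complexes that install H2A.Z, differed by 0.13 ± 0.05 (adjusted p = 0.893) and 0.17 ± 0.07 (adjusted p = 0.913). Ino80, the ATPase of another remodelling complex, differed by 0.12 ± 0.05 (adjusted p = 0.905). Of 21 genes of S phase and mitosis, 10 were tested, 9 of them above 0 over both sexes with a median of 0.05. Pcna, the sliding clamp of DNA polymerase, differed by 0.24 ± 0.09 (unadjusted p = 0.0193, adjusted p = 0.893). The markers of newborn neurons Dcx and Neurod1 differed by 0.10 ± 0.08 and 0.09 ± 0.08.

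Profiles over the 12 libraries were compared by the root mean square distance between standardised log2 values, over 9797 genes with a mean abundance of at least 5. This is a description of these libraries. The genes nearest to Hist3h2a were Xbp1, Prps1l3, Mrpl24, Nadk and Calr, at distances of 0.54 to 0.60, against a median of 1.38 over all genes. Among histone genes H2afj ranked 83 at 0.81, Hist1h2bc 332 at 0.95, H1f0 524 at 1.01, Hist2h2aa2 534 at 1.01 and Hist3h2ba 783 at 1.06. The furthest histone genes were H2afy2, H2afz, H1fx and H2afy, ranked 5577 to 7840 at 1.42 to 1.55, beyond the median. Hist3h2a and Hist1h2bc were picked for lower AS values in these libraries, so their nearness to each other partly follows from that choice. The genes nearest to Hist1h2bc were P4ha1, Plin3, Mettl23, Mapk4 and Igf1r, at 0.41 to 0.60, and Hist1h1c ranked 14 at 0.65. Hist1h1c was thus closer to Hist1h2bc than Hist3h2a was, at 0.95. Both Hist1h genes were highest in WT female replicate 2 and lowest in AS males, in replicate 3 for Hist1h1c.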

How the data were processed

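Trimmomatic, Bowtie2, RSEM and the GRCm38 (mm10) build are named, with no versions, in the submitters' processing notes. The authors deposited 1 table of 13951 Ensembl genes in 12 columns, whose values were read here as natural logs (ln), taken after adding 1 to an RSEM abundance. Whether that is TPM or FPKM, the log base, the constant and the normalization are not given in the sources used here. With base 2, log2 differences would be 0.693 times as large. Middle values recur in every column, as after quantile normalization. Read counts and depth are unknown.

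Values were converted to log2(abundance + 1), and genes with mean abundance under 1 were left out (93), leaving 13858. One model with 4 group means was fitted with limma 3.58.1 in R 4.3.3 (trended variance, 8 residual degrees of freedom). Genes were called at a Benjamini-Hochberg adjusted p-value under 0.05 over all genes. P-values measure the spread between these mice. Errors on differences are SE, and intervals are at 95%. The fit was tested on simulated data.

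Named were all members, any other histone gene in the table, up to 4 genes per further list by smallest p over both sexes, flanking genes, and the 5 nearest profiles. Members and lists were chosen with earlier results of these data known. Annotation was GENCODE M21, and promoters were RefSeq GRCm38.p6. Alternatives are given in the closing section.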

Additional observations from a re-analysis of the deposited data

How the results depend on the processing

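The 40 differences of members (8 genes in 5 comparisons) were recomputed under other log bases, constants, filters, weights, priors, normalization and sample sets, and with each of the 12 libraries left out. Of 816 recomputed values 810 moved by less than 1 within-group SD. Many of them could not move, since another prior, another filter or a library left out of groups not compared leaves a difference unchanged. This count is therefore no measure of robustness. Of the 40 differences, 26 kept their sign throughout. Among these 26, AS minus WT stayed above 0 for H2afy in males and over both sexes and for H2afz in males. The differences that stayed below 0 included those of Hist1h1c and H3f3a in females, in males and over both sexes, and that of H2afv in males. Those of Hist3h2a and Hist1h2bc are also counted, but these genes were chosen for that direction in the same libraries. No histone gene other than the picked pair, whose p-values were not read, was called under any of the 22 settings. Without the 4 choroid-high libraries, a fit in which WT females were 1 mouse assumed to vary like the other groups, the genes called for AS minus WT numbered 5 in females, 1 in males and 2 in the sexes combined, and there were 2 called for the interaction and 12 for male minus female. The numbers otherwise were 0, 0, 0, 0 and 5. A mean abundance of at least 5 left 3 called for male minus female. Leaving out 1 library gave 0 to 1 called in females, 0 to 1 in males and 0 to 2 in the sexes combined, and likewise 0 to 1 for the interaction and 4 to 8 for male minus female. The causes were not tested. No paired analysis was possible because the replicate numbers used here are only names that tie no mice together. Without WT female replicate 1, 8 of 12 clustered genes were below 0 in females in place of 10. With 3 mice per group and no depth, differences of low genes such as Hist2h3c1 could not be fixed in sign (95% interval over both sexes -0.71 to 0.87).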

Other observations

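Among the linker and centromere variants outside the member list, Cenpa, which marks centromeres and is low in tissue that does not divide, was at 1.64, 1.52 and 1.48 in AS females, against 1.15, 1.01 and 1.26 in WT females. In AS males it was at 1.40, 0.75 and 1.62, against 1.11, 1.57 and 1.24 in WT males. The female groups did not overlap and the male groups did. The female difference was 0.41 ± 0.22 (limma, unadjusted p = 0.0912, adjusted p = 1.00), and the difference between the sexes was not past the threshold. H1f0, the linker histone of cells that have stopped dividing, differed by -0.10 ± 0.05 over both sexes (adjusted p = 0.914), and 5 of 6 AS libraries lay below the WT mean. H1fx, another linker histone gene, differed by 0.16 ± 0.15 in females and -0.19 ± 0.15 in males, with AS male replicate 2 its lowest library at 3.04. Without that library the male difference was 0.03.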
